A study of Homo sapiens with 18 samples.

Results

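Glycolysis breaks glucose down to pyruvate, and lactate dehydrogenase turns pyruvate into lactate, which leaves the cell through monocarboxylate transporters. Hypoxia-inducible factor 1, whose alpha subunit is encoded by HIF1A, raises the transcription of most of these enzymes when oxygen is scarce, together with genes of angiogenesis, pH control, mitophagy and collagen hydroxylation. MDA-MB-231 is a triple-negative breast cancer cell line with a mesenchymal appearance and strong aerobic glycolysis. The 41 genes described here cover this programme: glucose and lactate transporters, glycolytic enzymes, enzymes at the pyruvate branch, and targets and regulators of the hypoxia factor. They were taken by gene symbol out of 62749 genes in the deposited count table, summed from transcripts to genes, and all 41 were among the 19252 genes that passed the filter on low counts.

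Messenger RNA of MDA-MB-231 cells was sequenced in 18 libraries, 3 for each of 6 groups. These were IMPDH2 knockout cells grown with 400 µM guanosine (KO+G), knockout cells given back IMPDH2 without a localisation signal in the labels (KO-WT), in a nuclear form (KO-NLS) or in a cytosolic form (KO-NES), the knockout cells alone (KO), and unedited cells (WT). IMPDH2 catalyses the step that commits inosine monophosphate to guanine nucleotides, and supplied guanosine reaches the same nucleotides through salvage. The labels give serum-containing DMEM in an incubator with CO2 for all groups, with no glucose concentration and no low-oxygen step. They do not say whether a knockout line is 1 clone, nor whether replicate libraries stem from different cultures, and p-values then reflect only how these libraries vary, which may be technical. KO differs from WT in IMPDH2 and in whatever else sets the edited line apart, and in that comparison these cannot be told apart. No group is labelled as knockout cells with an empty vector. In comparisons of KO-WT, KO-NLS or KO-NES with KO, returned IMPDH2 therefore cannot be told apart from whatever else sets the reconstituted line apart.

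Depth was 45.9e6 to 63.3e6 estimated counts per library. IMPDH2 transcript stood at 6.93% of its WT level in KO+G, 167% in KO-WT, 93.3% in KO-NLS, 119% in KO-NES and 13.1% in KO. Mesenchymal markers were abundant (VIM at 1992 to 2884 TPM), while the hormone receptor genes ESR1 and PGR and the T cell gene CD3E were at or near 0 in every library. Other luminal genes were expressed, with KRT8 at 71.2 to 258 TPM, KRT18 at 80.2 to 230 TPM and KRT19 at 112 to 206 TPM. ERBB2 lay at 15.9 to 27.4 TPM, and FOXA1 and CDH1 did not exceed 0.398 TPM. Mitochondrially encoded transcripts took 7.25 to 8.21% of counts in the 15 knockout-derived libraries and 5.15 to 5.21% in the WT libraries, and their part in the differences below was not tested. Levels are CPM on TMM-scaled library sizes, unless TPM, which also accounts for transcript length, is named. Each ± is an SD over n = 3 libraries or, after a log2 fold change, a standard error (SE), and a gene is called at an adjusted p under 0.05 from the quasi-likelihood test of edgeR, adjusted over all 19252 genes by the Benjamini-Hochberg method. The shares of all genes tested that stand beside counts of members were not matched to the members for expression level, and a call can rest on a small difference.

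Per unit of transcript length, the abundant members in WT were LDHA (2956 ± 62.9 TPM), ENO1 (2906 ± 52.6 TPM), GAPDH (2830 ± 69.8 TPM), PGK1 (2194 ± 49.8 TPM) and PKM (1800 ± 40.9 TPM). LDHA, ENO1 and GAPDH lay within a narrow range there: LDHA ran from 2892 to 3018 TPM and overlapped ENO1 at 2871 to 2967 TPM and, at its low end, GAPDH at 2755 to 2894 TPM. In KO the order was another one, with GAPDH at 3103 ± 86.2 TPM, PGK1 at 1330 ± 45.8 TPM, LDHA at 1206 ± 32.3 TPM, PKM at 1043 ± 45.7 TPM and ENO1 at 792 ± 22.3 TPM. At the other end were the lactate transporter SLC16A1 with 0.113 TPM in KO and 0.336 TPM in WT, and the carbonic anhydrase CA9 with 0.134 TPM in KO and 1.45 TPM in WT. NDRG1, SLC2A1, PFKL and PFKFB3 are left out of this ranking, because annotated transcripts under 300 bases carried 85.4%, 69.4%, 24.3% and 11.4% of their TPM. Together the 41 genes took 1.3 to 1.44% of counts in the knockout-derived libraries and 2.01 to 2.03% in WT.

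Most of the programme was lower in KO than in WT. Of the 41 genes, 29 (70.7%) were called lower and 6 (14.6%) higher, where 36.8% of all genes tested were called lower and 35.9% higher. The median log2 fold change of the members was -0.37, against 0.01 over all genes tested. Called with at least a 2-fold difference were 15 members (36.6%), 14 of them lower, where 22.7% of all genes tested met both conditions. TMM scaling placed every log2 fold change of this comparison at -0.161 relative to scaling by total counts, a shift larger than the falls of HK1 (-0.15) and EGLN1 (-0.12), whose direction therefore depends on the scaling. An offset for the average transcript length ended the calls of PFKFB3, PDK1, PFKL, KDM3A and EGLN1 in this comparison. The 3 KO and 3 WT libraries did not overlap for 35 of the 41 genes, where 74.7% of all genes tested showed no overlap.

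**Figure D1:**
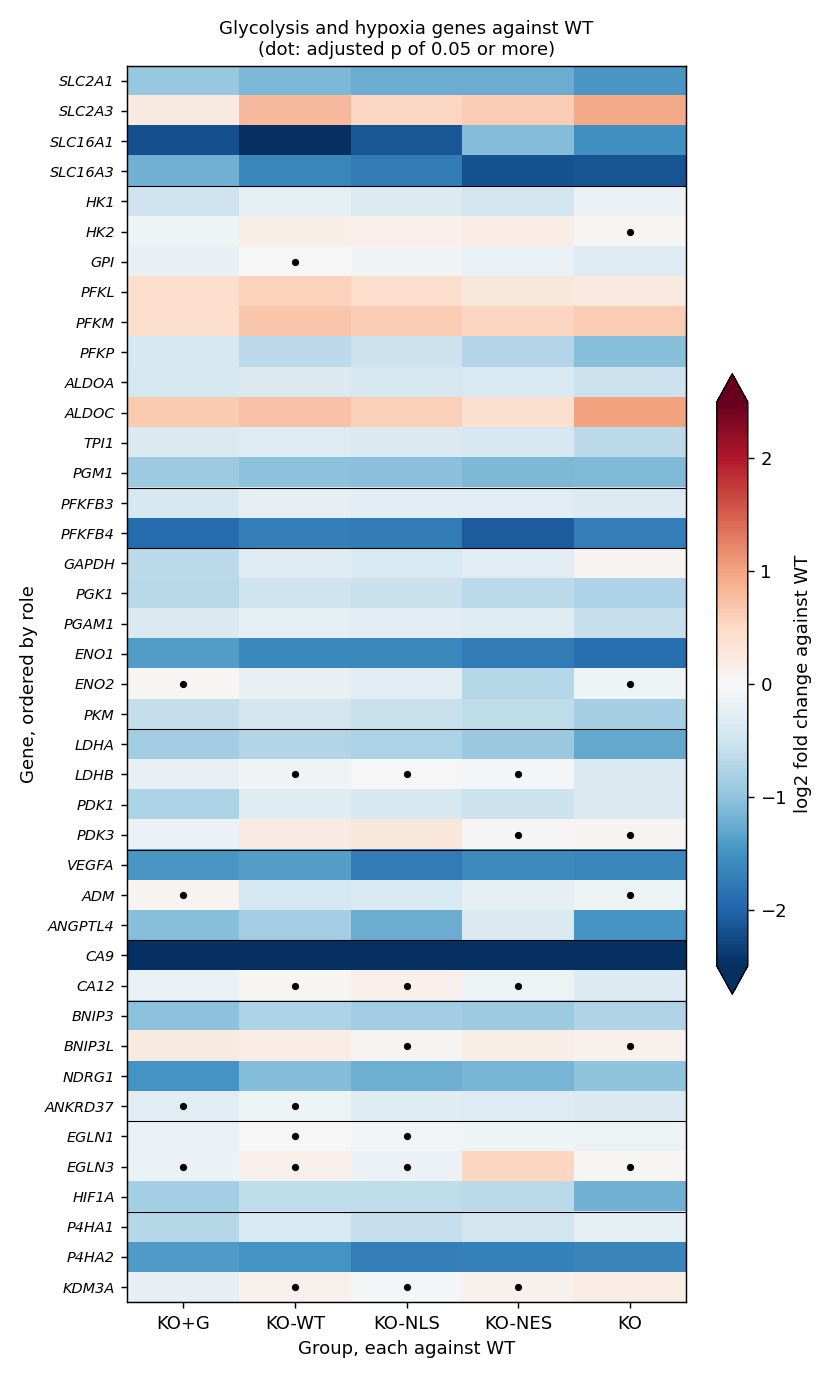
Colour shows the log2 fold change against WT of each of the 41 genes (rows, ordered by role) in KO+G, KO-WT, KO-NLS, KO-NES and KO (columns), and a dot marks an adjusted p of 0.05 or more. Blue prevails in all 5 columns, with 32, 27, 29, 30 and 29 genes called lower, and the same scale ends at a log2 of 2.5 in either direction, which CA9 exceeds.

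The hypoxia factor itself was among the genes that fell in KO. HIF1A (ENSG00000100644.17, chromosome 14, 61695513 to 61748259, plus strand, GRCh38) had 289, 270 and 277 CPM in KO+G, 327, 316 and 316 CPM in KO-WT, 327, 307 and 327 CPM in KO-NLS, 315, 313 and 305 CPM in KO-NES, 216, 222 and 212 CPM in KO, and 482, 493 and 522 CPM in WT. The WT libraries lay above and the KO libraries below all others, KO-NLS overlapped both KO-WT and KO-NES, which did not overlap each other, and KO+G lay between these 3 groups and KO. The log2 fold change of KO against WT was -1.21 ± 0.034 (SE), a level 2.31-fold lower, with an adjusted p of 7.03e-16. Of the prolyl hydroxylases that mark the HIF1A protein for degradation in oxygen, EGLN1 was 1.08-fold lower (adjusted p = 0.00216, edgeR) and EGLN3 did not pass the test (log2 0.02 ± 0.09 SE). These are transcript levels, and the abundance of the HIF1A protein was not measured.

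Among the transporters, 3 of 4 fell and 1 rose in KO, where 36.8% of all genes tested were called lower and 35.9% higher. SLC2A1, the glucose transporter GLUT1 (ENSG00000117394.24, chromosome 1, 42925375 to 42959176, minus strand), had 229, 230 and 228 CPM in KO+G, 204, 208 and 198 CPM in KO-WT, 188, 180 and 190 CPM in KO-NLS, 190, 181 and 187 CPM in KO-NES, 157, 166 and 164 CPM in KO, and 447, 435 and 444 CPM in WT. KO was below and WT above every other group, and KO-NLS and KO-NES lay on top of each other. SLC2A3, the higher-affinity glucose transporter GLUT3, ran the other way, with 48.2, 49.5 and 49.5 CPM in KO+G, 75.8, 74.8 and 70.3 CPM in KO-WT, 57.1, 61.1 and 61.6 CPM in KO-NLS, 64.9, 64.9 and 65.1 CPM in KO-NES, 80.4, 83.6 and 76.6 CPM in KO, and 40.6, 42 and 43.1 CPM in WT. Its KO libraries were the highest and its WT libraries the lowest, and KO+G came nearest to WT without overlapping it. In KO against WT the log2 fold change was -1.45 ± 0.028 (SE) for SLC2A1 (adjusted p = 6.61e-18) and 0.94 ± 0.038 (SE) for SLC2A3 (adjusted p = 1.32e-13, both edgeR).

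SLC16A3, the lactate exporter MCT4 (ENSG00000141526.18, chromosome 17, 82228397 to 82261129, plus strand), showed the largest fall among the members that were not sparsely counted. It had 168, 176 and 167 CPM in KO+G, 134, 130 and 118 CPM in KO-WT, 114, 115 and 123 CPM in KO-NLS, 81.1, 86.9 and 92.5 CPM in KO-NES, 78, 94.2 and 94.1 CPM in KO, and 408, 383 and 392 CPM in WT. All 3 KO-NES libraries fell inside the range of KO, and KO+G stood highest of the knockout-derived groups. The level was 4.44-fold lower in KO than in WT (log2 -2.15 ± 0.064 SE, adjusted p = 1.75e-15, edgeR). SLC16A1, the transporter MCT1, which is known to be scarce in MDA-MB-231 cells, was called lower as well (log2 -1.54 ± 0.305 SE, adjusted p = 0.000186), but on 52 counts over the 3 KO libraries and 132 counts over the 3 WT libraries.

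In upper glycolysis 6 of 10 genes fell, 3 rose and 1, HK2, did not pass the test (log2 0.03 ± 0.031 SE). Of all genes tested, 36.8% were called lower and 35.9% higher, so the 3 of 10 that rose are near that share. Those that fell were PGM1, PFKP, TPI1, ALDOA, GPI and HK1, with log2 fold changes of -1.11, -1.07, -0.66, -0.54, -0.32 and -0.15. PGM1, a phosphoglucomutase, is counted with upper glycolysis here and below but is not itself a step of glycolysis. The 3 phosphofructokinase subunits, which catalyse the committed step, did not move together: PFKP fell while PFKM and PFKL rose (log2 0.63 and 0.24). PFKP had 285, 298 and 294 CPM in KO+G, 254, 251 and 237 CPM in KO-WT, 272, 266 and 269 CPM in KO-NLS, 228, 237 and 242 CPM in KO-NES, 182, 186 and 189 CPM in KO, and 392, 385 and 390 CPM in WT. KO was again the lowest and WT the highest group. The aldolase pair was split too. ALDOC, the isoform best known from brain, had 17, 17.3 and 15.7 CPM in KO+G, 18.1, 18.6 and 16.7 CPM in KO-WT, 15.5, 15.8 and 17.1 CPM in KO-NLS, 13.8, 14.5 and 14.3 CPM in KO-NES, 20.5, 22.4 and 21.4 CPM in KO, and 10.3, 10.7 and 11 CPM in WT. It was the 1 member called at least 2-fold higher in KO than in WT (log2 1.01 ± 0.054 SE, adjusted p = 7.28e-12, edgeR), and KO-NES was the knockout-derived group nearest to WT.

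PFKFB3 and PFKFB4 make fructose 2,6-bisphosphate, an activator of phosphofructokinase, and both were lower in KO. PFKFB4 (ENSG00000114268.12, chromosome 3, 48517684 to 48562015, minus strand) had 9.87, 9.93 and 10.7 CPM in KO+G, 12, 12.7 and 11 CPM in KO-WT, 11.6, 11 and 12.1 CPM in KO-NLS, 9.26, 9.3 and 8.93 CPM in KO-NES, 11.5, 11.7 and 11.7 CPM in KO, and 38.4, 39.8 and 38.2 CPM in WT. Every knockout-derived library lay at 12.7 CPM or less, far below the 3 WT libraries, and the KO-WT and KO-NLS libraries surrounded the KO values. In KO against WT the log2 fold change was -1.73 ± 0.05 (SE) for PFKFB4 and -0.34 ± 0.029 (SE) for PFKFB3, with adjusted p of 9.76e-16 and 5.61e-09 (edgeR).

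Lower glycolysis held a wide spread of responses in KO: 4 of 6 genes fell, 1 rose and 1, ENO2, was not called (log2 -0.11 ± 0.048 SE, adjusted p = 0.0573). ENO2 was called lower with DESeq2 size factors, without the filter on low counts and with a replicate block (adjusted p = 0.0351, 0.0181 and 0.0183, edgeR). The DESeq2 Wald test called it lower too (adjusted p = 0.0237). The shares over all genes tested were 36.8% lower and 35.9% higher. ENO1, the main enolase (ENSG00000074800.16, chromosome 1, 8861000 to 8879250, minus strand), had 1220, 1220 and 1239 CPM in KO+G, 1034, 1060 and 1052 CPM in KO-WT, 1049, 1024 and 1075 CPM in KO-NLS, 975, 959 and 951 CPM in KO-NES, 876, 869 and 859 CPM in KO, and 3180, 3196 and 3279 CPM in WT. The 15 knockout-derived libraries stayed far below those of WT, with KO lowest and KO+G highest among them. The level was 3.71-fold lower in KO than in WT (log2 -1.89 ± 0.021 SE, adjusted p = 1.34e-20, edgeR). PKM, PGK1 and PGAM1 fell less, with log2 fold changes of -0.83, -0.77 and -0.58.

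GAPDH, the dehydrogenase between the upper and lower parts of the pathway, differed from its neighbours in the pathway. It had 2349, 2405 and 2393 CPM in KO+G, 3010, 3055 and 2935 CPM in KO-WT, 2822, 2844 and 2966 CPM in KO-NLS, 3179, 3081 and 3075 CPM in KO-NES, 3981, 3804 and 3903 CPM in KO, and 3790, 3685 and 3720 CPM in WT. KO stood highest, just above WT, and KO+G lowest. The KO and WT libraries did not overlap, but the difference was small (log2 0.06 ± 0.024 SE, adjusted p = 0.0283, edgeR) and the call was lost with DESeq2 size factors (adjusted p = 0.0586) and without the filter on low counts (adjusted p = 0.194). It was also lost when WT replicate 2, KO replicate 1 or KO replicate 3 was left out, at log2 0.05, 0.05 and 0.06.

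**Figure D2:**
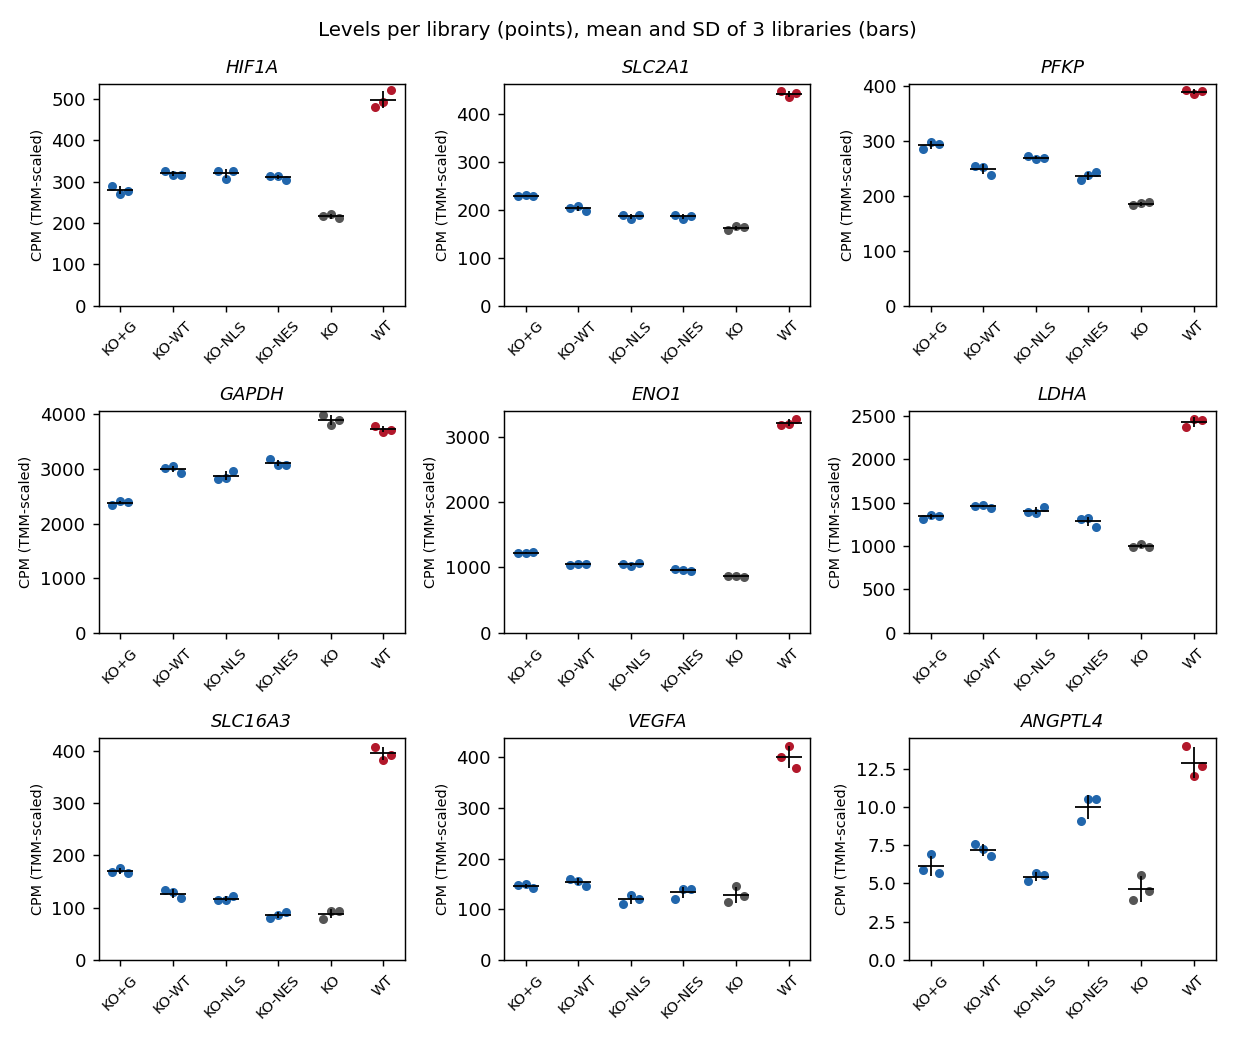
Each panel gives the TMM-scaled CPM of 1 gene on a linear axis from 0, with a point per library and lines for the mean and SD of the 3 libraries of KO+G, KO-WT, KO-NLS, KO-NES, KO and WT. KO is the lowest group for HIF1A, SLC2A1, PFKP, ENO1 and LDHA and the highest for GAPDH, and WT is the highest for all but GAPDH.

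At the pyruvate branch 3 of 4 genes were lower in KO, where 36.8% of all genes tested were called lower. LDHA (ENSG00000134333.15, chromosome 11, 18394388 to 18408425, plus strand), which makes lactate, had 1310, 1361 and 1348 CPM in KO+G, 1461, 1470 and 1442 CPM in KO-WT, 1388, 1381 and 1453 CPM in KO-NLS, 1306, 1325 and 1223 CPM in KO-NES, 986, 1021 and 983 CPM in KO, and 2368, 2469 and 2449 CPM in WT. KO was again lowest without overlap, and the other knockout-derived groups lay between KO and WT. The level was 2.44-fold lower in KO than in WT (log2 -1.28 ± 0.03 SE, adjusted p = 7e-17, edgeR), and pseudogene copies of LDHA took 1.84% of its counts. LDHB and PDK1, the kinase that holds pyruvate dehydrogenase inactive, both fell by 0.37 on the log2 scale, and PDK3, a second such kinase, was not called (log2 0.07 ± 0.059 SE). PDK3 had 12.9, 11.8 and 11.5 CPM in KO+G, 15.3, 15.3 and 15.4 CPM in KO-WT, 15.4, 17 and 16.4 CPM in KO-NLS, 13.5, 13.8 and 13.3 CPM in KO-NES, 12.9, 15.4 and 13.9 CPM in KO, and 13, 14 and 13.1 CPM in WT. The KO and WT libraries of PDK3 overlapped.

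Of the secreted hypoxia targets, VEGFA and ANGPTL4 fell in KO and ADM, which encodes adrenomedullin, did not pass the test (log2 -0.12 ± 0.057 SE). VEGFA, the main angiogenic growth factor (ENSG00000112715.26, chromosome 6, 43770184 to 43786487, plus strand), had 147, 150 and 142 CPM in KO+G, 159, 155 and 146 CPM in KO-WT, 111, 128 and 121 CPM in KO-NLS, 121, 139 and 140 CPM in KO-NES, 114, 145 and 126 CPM in KO, and 400, 422 and 378 CPM in WT. WT stood apart from all knockout-derived libraries, which overlapped KO in every group except KO-WT. ANGPTL4, an inhibitor of lipoprotein lipase (ENSG00000167772.12, chromosome 19, 8363289 to 8374373, plus strand), had 5.88, 6.91 and 5.66 CPM in KO+G, 7.59, 7.22 and 6.77 CPM in KO-WT, 5.13, 5.68 and 5.52 CPM in KO-NLS, 9.1, 10.5 and 10.5 CPM in KO-NES, 3.92, 5.53 and 4.48 CPM in KO, and 14, 12 and 12.7 CPM in WT. KO-NES was the knockout-derived group nearest to WT, and KO-NLS overlapped KO. In KO against WT, VEGFA was 3.12-fold lower (log2 -1.64 ± 0.075 SE, adjusted p = 6.36e-13) and ANGPTL4 2.78-fold lower (log2 -1.48 ± 0.107 SE, adjusted p = 5.19e-10, both edgeR).

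The remaining hypoxia targets were lower in KO with few exceptions. Both carbonic anhydrases, which keep pH in hypoxic cells, were called lower. CA9 fell by 3.45 on the log2 scale (SE 0.416, adjusted p = 6.11e-07, edgeR), on 37 counts over the KO libraries and 349 counts over the WT libraries. CA12 had 26.1, 25.4 and 24.7 CPM in KO+G, 30.2, 29.1 and 28.3 CPM in KO-WT, 28.6, 29.5 and 34.3 CPM in KO-NLS, 26.1, 25.7 and 26.4 CPM in KO-NES, 22, 23.4 and 22.1 CPM in KO, and 27.3, 28.5 and 29.3 CPM in WT. KO was the lowest group of CA12, and KO-WT and KO-NLS overlapped WT. The stress gene NDRG1 and the mitophagy receptor BNIP3 fell by 1.0 and 0.75 on the log2 scale, while BNIP3L, the paralog of BNIP3, was not called (log2 0.10 ± 0.043 SE). BNIP3L was called higher without the filter on low counts, with a replicate block, with coding genes alone and with only the compared libraries (adjusted p = 0.0141, 0.0239, 0.00189 and 0.049, edgeR). P4HA2, a catalytic subunit of collagen prolyl hydroxylase (ENSG00000072682.20, chromosome 5, 132191838 to 132295315, minus strand), had 25.5, 27 and 26.2 CPM in KO+G, 25.5, 25.2 and 24.7 CPM in KO-WT, 20.7, 21.2 and 23.3 CPM in KO-NLS, 22.4, 21.7 and 21.4 CPM in KO-NES, 22.1, 22.8 and 21.9 CPM in KO, and 68.6, 70.7 and 72 CPM in WT. Its knockout-derived libraries lay close together, 3.16-fold below WT in KO (adjusted p = 8.98e-17, edgeR), while its partner P4HA1 was 1.17-fold lower and the histone demethylase KDM3A 1.14-fold higher.

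Some members lie in chromosomal stretches whose genes were lower in KO as a whole. For each member the 50 nearest tested coding genes of its chromosome were summarised by their median log2 fold change of KO against WT. That median was -1.09 around ENO1, where 47 of the 50 neighbours between 6101793 and 11674354 of chromosome 1 were lower, against -1.89 for ENO1 itself. It was -0.80 around PGM1, -0.67 around P4HA2, -0.60 around SLC2A1, -0.55 around PFKFB4 and -0.44 around SLC16A1. Around SLC16A3, VEGFA, LDHA, HIF1A, PKM and ANGPTL4 the neighbours had medians of 0.06, -0.04, 0.11, 0.12, -0.01 and 0.31. Over the 41 genes the neighbour medians had a median of -0.03, and 31 members lay below and 10 above their own neighbours, by a median of -0.43. The cause of the lower neighbourhoods was not tested.

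**Figure D3:**
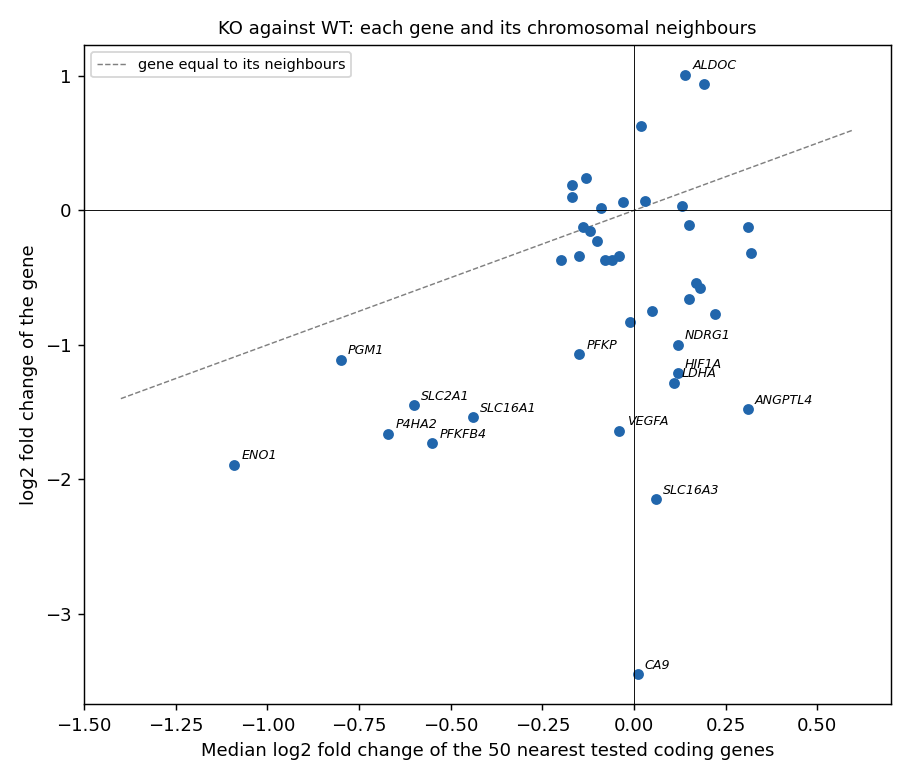
Each point is 1 of the 41 genes, with the median log2 fold change of its 50 nearest tested coding genes in KO against WT on the x axis and its own log2 fold change on the y axis. The dashed line marks a gene equal to its neighbours, and 31 points lie below it, with ENO1, PGM1, P4HA2, SLC2A1 and PFKFB4 at the left.

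The hypoxia factor binds the core letters ACGTG or GCGTG, so the 250 bases before the transcription start were searched for these and for their reverse complements CACGT and CACGC. RefSeq (GRCh38.p14) gave the promoters of 36 members, all but SLC2A3, SLC16A1, VEGFA, BNIP3L and NDRG1. A match was found in 23 of the 36 (63.9%), in 55.7% of the promoters of 12441 tested genes and in 43.1% of all 27305 promoters, so these letters are common. BNIP3, which fell in KO (log2 -0.75), held the most, 6 matches, which may overlap. LDHA, which fell, and ALDOC, which rose, each held 5, and SLC16A3, which fell furthest among the well-measured members, held none. Whether the matches go with the changes was not tested. LDHA, ALDOC and SLC16A3 are shown 5′ to 3′ on the strand of the gene, with matches in capitals: LDHA from the plus strand at chr11:18394313-18394562, ALDOC from the minus strand at chr17:28576896-28577145, and SLC16A3 from the plus strand at chr17:82228185-82228434.
LDHA: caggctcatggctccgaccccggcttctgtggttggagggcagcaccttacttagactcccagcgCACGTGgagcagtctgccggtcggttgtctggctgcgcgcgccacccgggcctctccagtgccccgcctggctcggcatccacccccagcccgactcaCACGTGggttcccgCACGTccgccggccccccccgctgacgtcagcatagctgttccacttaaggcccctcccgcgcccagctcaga
ALDOC: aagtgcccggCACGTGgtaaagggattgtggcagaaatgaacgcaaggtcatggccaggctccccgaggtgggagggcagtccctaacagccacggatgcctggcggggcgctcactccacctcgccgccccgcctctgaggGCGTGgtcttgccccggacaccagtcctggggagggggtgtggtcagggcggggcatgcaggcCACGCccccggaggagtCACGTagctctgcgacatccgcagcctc
SLC16A3: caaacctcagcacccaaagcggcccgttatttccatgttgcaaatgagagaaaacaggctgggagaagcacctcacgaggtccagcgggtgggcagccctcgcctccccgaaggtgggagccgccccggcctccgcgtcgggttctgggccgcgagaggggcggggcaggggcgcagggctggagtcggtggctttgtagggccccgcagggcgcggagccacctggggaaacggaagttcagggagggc
A match is a description of the letters and shows no binding.

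Guanosine moved most members of the KO programme, in both directions. In KO+G against KO, 22 of 41 genes (53.7%) were called higher and 15 (36.6%) lower, where 27.3% of all genes tested were called higher and 29.2% lower. The median log2 fold change was 0.11 for the members and -0.02 over all genes tested, and 1 member (CA9, on 12 counts in KO+G and 37 in KO) was called at 2-fold or more, where 7.69% of all genes tested were. The largest rise was in SLC16A3, 1.92-fold (log2 0.94 ± 0.064 SE, adjusted p = 6.85e-10), followed by PFKP at 1.58-fold (log2 0.66 ± 0.028 SE, adjusted p = 1.31e-12) and by ENO1 and SLC2A1, both at log2 0.50 (adjusted p = 1.02e-12 and 4.35e-11, all edgeR). LDHA rose by 0.43 and HIF1A by 0.37 on the log2 scale, and all 3 secreted factors were called higher, VEGFA by 0.19 with an adjusted p of 0.0393. GAPDH and SLC2A3 both fell by 0.71 on the log2 scale (adjusted p = 7.23e-14 and 2.54e-11, edgeR), to levels 1.64-fold and 1.63-fold below KO. Also lower were NDRG1 (-0.49), P4HA1 (-0.48), PDK1 (-0.43), KDM3A (-0.39), HK1 (-0.37), ALDOC (-0.36) and BNIP3 (-0.27). In lower glycolysis GAPDH was the 1 gene of 6 that fell, while the other 5 were called higher, of which PGK1 and ENO2 lost the call with the transcript length offset (0.03 and 0.12) and PGK1 also with coding genes alone (0.05). With that offset 16 members were called higher and 9 lower. Member counts with this offset, here and in the comparisons below, show only how far calls depend on it. The calls lost were those of ADM, VEGFA, CA12, PGK1, ENO2, PFKL and ALDOA among the higher genes and those of CA9, NDRG1, PDK1, PDK3 and PFKM among the lower, and PFKFB3 stood at 0.85 with the offset and at -0.08 without it. The KO+G libraries of PFKFB3 held 24.3, 23.8 and 81.6 TPM, so its value with the offset rests largely on 1 library. The VEGFA call was also lost without KO replicate 1 (0.12), KO replicate 3 (0.18), KO+G replicate 1 (0.18) or KO+G replicate 2 (0.17), and the CA9 call in 5 of the 6 fits that left out 1 of these libraries.

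With IMPDH2 given back without a localisation signal, 22 of 41 genes (53.7%) were called higher and 7 (17.1%) lower than in KO, where 25.7% of all genes tested were called higher and 25.1% lower. The members had a median log2 fold change of 0.13, all genes tested -0.02, and no member reached 2-fold with a call, where 4.96% of all genes tested did. ANGPTL4 rose most (log2 0.63 ± 0.109 SE, adjusted p = 9.07e-05), then HIF1A (0.56 ± 0.033 SE, adjusted p = 2.22e-10), LDHA (0.55 ± 0.03 SE, adjusted p = 6.38e-11), SLC16A3 (0.52 ± 0.064 SE, adjusted p = 2.26e-06), PFKP (0.42 ± 0.028 SE, adjusted p = 1.13e-09) and CA12 (0.38 ± 0.055 SE, adjusted p = 1.39e-05, all edgeR). Of the 10 genes of upper glycolysis 7 were called higher, among them PFKL (0.34), TPI1 (0.33), GPI (0.32) and ALDOA (0.19), and of the 6 of lower glycolysis 4 were, PKM (0.37), PGAM1 (0.34), PGK1 (0.27) and ENO1 (0.27). The 7 that fell were GAPDH (-0.38), ADM (-0.31), ALDOC (-0.27), P4HA1 (-0.16), SLC2A3 (-0.12), HK1 (-0.09) and SLC16A1 (-0.98, on 25 counts in KO-WT and 52 in KO). None of the 4 mitophagy and stress genes was called. With the transcript length offset 4 members were called lower, and the calls of PFKL, PFKFB3, PGM1, SLC2A1, VEGFA, EGLN1, SLC2A3, P4HA1 and HK1 were lost. The calls of SLC2A3 and SLC16A1 were lost without KO replicate 2 (-0.09 and -0.62) or KO-WT replicate 3 (-0.09 and -0.66), and that of HK1 without KO replicate 1 (-0.05) or KO-WT replicate 1 (-0.08).

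The nuclear form gave 17 of 41 genes (41.5%) called higher and 10 (24.4%) lower in KO-NLS against KO, where 26.1% of all genes tested were called higher and 26.9% lower. The median log2 fold change of the members was 0.06, against -0.02 over all genes tested. With the transcript length offset 6 were called lower, and the calls of NDRG1, ENO2, KDM3A, SLC2A1, PFKL, ALDOA, HK1 and BNIP3 were lost. HIF1A (0.57 ± 0.033 SE, adjusted p = 1.65e-10), PFKP (0.54 ± 0.028 SE, adjusted p = 3.02e-11), LDHA (0.50 ± 0.03 SE, adjusted p = 1.77e-10) and CA12 (0.45 ± 0.054 SE, adjusted p = 1.44e-06) rose most, and GAPDH (-0.44 ± 0.024 SE, adjusted p = 6.92e-11) and SLC2A3 (-0.42 ± 0.037 SE, adjusted p = 2.97e-08, all edgeR) fell most. VEGFA (-0.10 ± 0.075 SE) and ANGPTL4 (0.23 ± 0.11 SE) were not called. The cytosolic form gave 16 (39.0%) higher and 11 (26.8%) lower in KO-NES against KO, where 24.6% and 26.0% of all genes tested were, with a median of 0.04 for the members and 7 called lower with the transcript length offset, which ended the calls of SLC2A3, PGK1, SLC2A1, ALDOA, PDK1, PFKM and HK1. ANGPTL4 rose 2.16-fold there (log2 1.11 ± 0.107 SE, adjusted p = 1.11e-07), HIF1A (0.52 ± 0.033 SE, adjusted p = 5.46e-10), EGLN3 (0.52 ± 0.088 SE, adjusted p = 7.31e-05) and LDHA (0.37 ± 0.03 SE, adjusted p = 1.09e-08) rose, and ENO2 (-0.60 ± 0.049 SE, adjusted p = 1.31e-08) and ALDOC (-0.60 ± 0.053 SE, adjusted p = 3.56e-08, all edgeR) fell. SLC16A3 was not called in KO-NES against KO (-0.03 ± 0.065 SE). HIF1A and EGLN3 both lie on chromosome 14, where in KO-NES against KO the 50 nearest tested coding genes had a median log2 fold change of 0.28 around HIF1A, with 41 higher, and of 0.27 around EGLN3, with 43 higher. HIF1A stood 0.24 and EGLN3 0.25 above these medians, and the cause was not tested.

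All 4 of these comparisons share the KO libraries, so their values for a gene are given side by side without a test of their likeness. Relative to scaling by total counts, TMM scaling placed log2 fold changes against KO at 0.065 in KO+G, 0.08 in KO-WT, 0.083 in KO-NLS and 0.088 in KO-NES. The direction of rises smaller than this depends on the scaling, and the member medians in KO-NLS and KO-NES lie below it. In the order KO+G, KO-WT, KO-NLS and KO-NES against KO, ENO1 stood at log2 0.50, 0.27, 0.27 and 0.15, and TPI1 at 0.29, 0.33, 0.29 and 0.24. GAPDH stood at -0.71, -0.38, -0.44 and -0.32, and SLC2A1 at 0.50, 0.33, 0.20 and 0.19. With an offset for the average transcript length, the SLC2A1 call remained for KO+G and was lost for KO-WT (0.09), KO-NLS (0.06) and KO-NES (0.09). For no group did these steps bring HIF1A, SLC2A1, ENO1, LDHA or VEGFA into the range of the WT libraries. Some other members called lower in KO came to overlap their WT libraries. GPI had 292, 292 and 284 CPM in KO-WT, against 287, 290 and 290 CPM in WT. With the transcript length offset GPI was called higher in KO-WT than in WT (log2 0.17, adjusted p = 0.00169, edgeR). LDHB had 598, 594 and 622 CPM in KO-NLS, against 600, 597 and 616 CPM in WT.

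**Figure D4:**
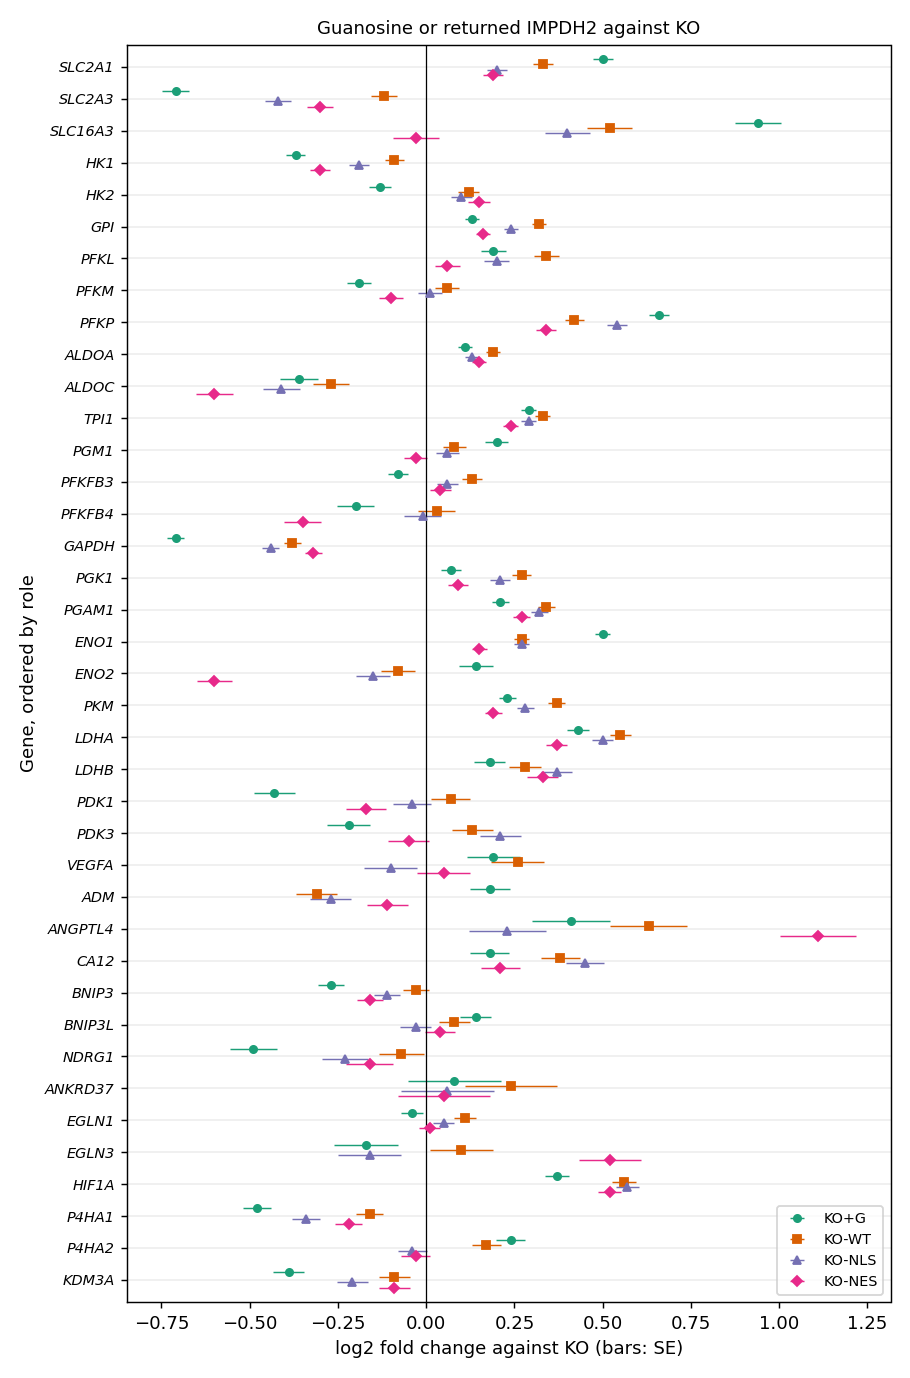
Points give the log2 fold change against KO of 39 genes (rows, ordered by role) in KO+G, KO-WT, KO-NLS and KO-NES, with bars of 1 SE, and CA9 and SLC16A1 are left out because of their low counts. GAPDH, SLC2A3, HK1, ALDOC and P4HA1 lie left of 0 in all 4 groups and HIF1A, LDHA, PFKP and ENO1 right of it, while SLC16A3, ANGPTL4 and ENO2 spread furthest between the groups.

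Nuclear and cytosolic IMPDH2 were compared directly. The 2 lines also differed in IMPDH2 transcript, at 297 CPM in KO-NLS and 379 CPM in KO-NES. In this comparison the location of IMPDH2 cannot be told apart from its level or from whatever else sets each line apart. In KO-NLS against KO-NES, 15 of 41 genes (36.6%) were called higher and 6 (14.6%) lower, where 13.4% of all genes tested were called higher and 10.5% lower, and the members had a median log2 fold change of 0.05. ANGPTL4 was 1.84-fold lower with the nuclear form (log2 -0.88 ± 0.106 SE, adjusted p = 9.73e-06, edgeR). EGLN3 had 3.14, 3.49 and 3.1 CPM in KO+G, 3.93, 4.17 and 3.61 CPM in KO-WT, 3.13, 3.43 and 3.23 CPM in KO-NLS, 4.87, 5.29 and 5.54 CPM in KO-NES, 3.52, 3.76 and 3.66 CPM in KO, and 3.5, 3.31 and 3.96 CPM in WT. The 3 KO-NES libraries were above all 15 others, and the log2 fold change of KO-NLS against KO-NES was -0.68 ± 0.089 (SE, adjusted p = 2.14e-05, edgeR), while its 50 nearest tested coding genes had a median of -0.18, with 41 of them lower. ENO2, the neuronal enolase, had 101, 112 and 110 CPM in KO+G, 91.3, 95.2 and 91.7 CPM in KO-WT, 86.4, 90.5 and 87.2 CPM in KO-NLS, 60.7, 66.1 and 66.7 CPM in KO-NES, 95.9, 104 and 94 CPM in KO, and 107, 110 and 98.6 CPM in WT. Here KO-NES was below all other libraries, and KO-NLS was 1.36-fold higher (log2 0.45 ± 0.05 SE, adjusted p = 3.48e-06, edgeR). SLC16A3, PFKFB4 and PDK3 were also higher with the nuclear form, by 0.43, 0.33 and 0.26 on the log2 scale. Of upper glycolysis 6 of 10 genes were called higher and none lower (PFKP 0.19, ALDOC 0.19, PFKL 0.15, HK1 0.11, PFKM 0.10 and GPI 0.08), and of lower glycolysis 4 of 6 were called higher and 1, GAPDH, lower (-0.11). HIF1A (0.04 ± 0.033 SE), SLC2A1 (0.00 ± 0.027 SE) and VEGFA (-0.15 ± 0.076 SE) were not called, which does not show that the 2 forms left them alike. The number called lower depends on single libraries: it was 6 with all libraries and 3 to 5 with 1 library left out, with 3 when KO-NES replicate 1 or KO-NES replicate 2 was left out. With the transcript length offset 7 were called higher and 3 lower, and the calls of SLC2A3, PKM, PDK3, CA12, ALDOC, PFKL, HK1, PFKM, GPI, P4HA1 and SLC16A1 were lost. Leaving out 1 library ended the call of PFKM whichever of the 6 it was, that of ALDOC without KO-NLS replicate 3 (0.15) or KO-NES replicate 1 (0.17), and that of HK1 without KO-NLS replicate 3 (0.09).

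Guanosine and returned IMPDH2 were set against each other as well. IMPDH2 transcript stood at 6.93% of its WT level in KO+G and at 167% in KO-WT. Guanosine, the level of IMPDH2 and whatever else sets the KO-WT line apart cannot be told apart in this comparison. In KO+G against KO-WT, 7 of 41 genes (17.1%) were called higher and 24 (58.5%) lower, where 18.6% of all genes tested were called higher and 18.9% lower, and the members had a median log2 fold change of -0.16. SLC2A3 (-0.59 ± 0.038 SE, adjusted p = 1.85e-09), PDK1 (-0.50 ± 0.057 SE, adjusted p = 1.71e-06) and GAPDH (-0.33 ± 0.024 SE, adjusted p = 8.19e-09, all edgeR) were lower with guanosine. Higher with guanosine were ADM (0.49), SLC16A3 (0.42), PFKP (0.24), ENO1 (0.23), ENO2 (0.22), SLC2A1 (0.17) and PGM1 (0.12). The transcript length offset ended the calls of PDK1, ENO2, PGM1, CA12, PFKFB4 and ALDOA and turned the sign of NDRG1, PFKL and PFKFB3. None of those with a turned sign was called with the offset (adjusted p = 0.98, 0.393 and 0.131, edgeR).

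Against WT most of the programme, though not every member, remained low in every knockout-derived group. Called lower were 32 of 41 genes in KO+G (78.0%), 27 in KO-WT (65.9%), 29 in KO-NLS (70.7%) and 30 in KO-NES (73.2%), where 32.9%, 33.4%, 33.6% and 34.7% of all genes tested were. Called higher were 5, 7, 6 and 7, where 31.1%, 31.1%, 31.5% and 32.9% of all genes tested were. The medians of the members were -0.43, -0.33, -0.39 and -0.42 on the log2 scale. These comparisons share the WT libraries with each other and with KO against WT.

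PKM is spliced with 1 of 2 neighbouring exons of 167 bases, of which the upstream one (chr15:72203022-72203188) marks the PKM1 form and the downstream one (chr15:72202454-72202620) the PKM2 form that prevails in proliferating cells. The share of assigned PKM counts on transcripts with the upstream exon was 4.99, 7.61 and 6.91% in KO+G, 8.43, 8.24 and 8.46% in KO-WT, 7.53, 8.57 and 9.18% in KO-NLS, 10.2, 9.54 and 10.3% in KO-NES, 9.22, 9.61 and 9.3% in KO, and 7.78, 6.84 and 7.38% in WT. The downstream exon therefore dominated in every library, and the KO libraries lay above those of WT without overlap. The share averaged 9.38% ± 0.206 in KO and 7.33% ± 0.472 in WT (SD, n = 3 each). Transcripts that could be assigned held 67.1 to 73.9% of PKM counts, the estimates rest on how reads were divided between transcripts, and no test was made.

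Genes of the same pathways outside the 41 were counted from lists chosen with earlier results of these data known. Of 33 other hypoxia targets tested, 25 were called lower and 6 higher in KO than in WT, with a median log2 fold change of -0.57, where 36.8% of all genes tested were called lower and 35.9% higher. The largest falls were in PPFIA4 (-2.87), in DDIT4, an inhibitor of mTORC1 (-2.39), and in the mitochondrial adenylate kinase AK4 (-2.22). In KO+G, KO-WT, KO-NLS and KO-NES against KO, 12, 17, 13 and 12 of the 33 were called higher, where 27.3, 25.7, 26.1 and 24.6% of all genes tested were, and 13, 10, 12 and 11 were called lower, where 29.2, 25.1, 26.9 and 26.0% were. Of 16 regulators of the hypoxia factor, 4 were higher and 7 lower in KO, against the same shares of all genes tested. ELOC, the elongin C subunit of the ubiquitin ligase that marks the factor for degradation, averaged 27.1 CPM in KO and 55.5 CPM in WT (log2 -1.03). CITED2, which competes with the factor for its coactivators, averaged 278 CPM in KO and 146 CPM in WT (log2 0.93, adjusted p = 5.56e-13), and EPAS1, which encodes an alternative alpha subunit of the factor, averaged 73 CPM in KO and 130 CPM in WT (log2 -0.84, adjusted p = 1.08e-12, both edgeR). CITED2 was lower than in KO in all 4 treated or reconstituted groups, with log2 fold changes of -1.01, -1.03, -0.98 and -0.83 in KO+G, KO-WT, KO-NLS and KO-NES. Of 18 other glycolytic and gluconeogenic enzymes, 7 were higher and 7 lower in KO, which is near those shares. The gluconeogenic fructose-bisphosphatase FBP1 stood at -1.98, the D-lactate dehydrogenase LDHD at 1.25 and the glucose-6-phosphatase G6PC3 at 0.89. Of 14 genes of pyruvate entry into mitochondria, 2 were higher and 10 lower in KO, led by the pyruvate dehydrogenase subunits DLAT (-0.60) and PDHB (-0.59).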

How the data were processed

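The authors deposited Salmon output per sample and a series table: estimated counts (expected counts) and TPM for each of 252048 transcripts, as the file headers show. The submitters' processing notes name Trim Galore 0.6.10, Salmon 1.10.0 and hg19, while gene positions here come from GENCODE 29 on GRCh38. The deposited estimated counts of the series table were summed to genes and rounded, and the deposited TPM values were summed to genes. The labels number the cell line upward from sample to sample, and 1 line was assumed from the growth protocol.

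All 18 libraries entered 1 edgeR 4.0.16 fit (R 4.3.3) with filterByExpr, TMM scaling, 1 mean per group, the quasi-likelihood test and Benjamini-Hochberg adjustment over 19252 genes within each of 11 comparisons. The biological coefficient of variation common to all genes came to 4.87%. Members, lists and comparisons were chosen with earlier results of these data known. Values in every library are given for HIF1A, SLC2A1, ENO1, LDHA and VEGFA and, per main comparison, for the 6 called members with the largest log2 fold change and an average log2 CPM of at least 1. Up to 3 genes of each other list are named by the same measure, and a few that this takes are not reported here. Alternatives were DESeq2 1.42.0, its size factors, no filter, coding genes alone, only the compared libraries, an offset for transcript length, the per-sample tables, a replicate block, and each library left out in turn.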

Additional observations from a re-analysis of the deposited data

Results flagged for a closer look

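HK2, PFKFB3 and ADM moved in opposite directions against KO with guanosine and with returned IMPDH2, and the difference between the 2 was itself tested. The glucose-phosphorylating hexokinase HK2 stood at -0.13 in KO+G and 0.12 in KO-WT, both against KO, and the log2 fold change of KO+G against KO-WT was -0.26 (adjusted p = 3.35e-06, edgeR quasi-likelihood test). PFKFB3 stood at -0.08 and 0.13, with a difference of -0.20 (adjusted p = 2.33e-05), but its call in KO+G against KO was lost with DESeq2 size factors, without the filter on low counts and with the DESeq2 Wald test, and its value reversed to 0.85 with an offset for transcript length. Its KO+G libraries held 24.3, 23.8 and 81.6 TPM, so the reversed value rests largely on 1 library. ADM stood at 0.18 and -0.31, with a difference of 0.49 (adjusted p = 2.88e-06), but its call in KO+G against KO was lost with the transcript length offset (0.09, adjusted p = 0.37, edgeR).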

How the results depend on the processing

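Over the 11 comparisons the 41 genes gave 451 results. With the DESeq2 Wald test 442 of them kept their direction and call, with DESeq2 size factors 444, with coding genes alone 428, without the filter on low counts 423, and all 451 did with counts taken from the per-sample tables. An offset for the average transcript length changed most: 361 stayed, 77 lost and 5 gained a call, and 8 changed sign, most of them without a call. The values that changed sign were PFKFB3 at 0.85 in KO+G against KO, 0.44 in KO+G against WT and 0.71 in KO+G against KO-WT, PDK3 at 0.32 in KO-NES against KO, GPI at 0.05 in KO-NLS and 0.00 in KO-NES against WT, and NDRG1 at 0.02 and PFKL at 0.34 in KO+G against KO-WT. Only PFKFB3 in KO+G against KO (adjusted p = 0.0438) and PDK3 (adjusted p = 0.0242, both edgeR) were called with the offset. The PFKFB3 values rest largely on KO+G replicate 3, at 81.6 TPM beside 24.3 and 23.8 TPM. NDRG1, PFKL and PFKFB3 are among the members whose TPM rests in part on transcripts under 300 bases, and the cause was not tested. With this offset the members called lower numbered 9, 4, 6 and 7 in KO+G, KO-WT, KO-NLS and KO-NES against KO. The shares of all genes called lower against KO with the offset are not given, so these counts are not set against them. In KO-NLS against KO-NES 7 members were higher and 3 lower with the offset, where 1085 and 770 of all genes tested were. Over all genes it gave 3258 higher in KO-WT and 3150 in KO-NES against KO, and 1962 higher and 2183 lower in KO+G against KO-WT. Leaving out 1 library kept 2571 of 2706 member results, and the members lower in KO-NLS against KO-NES ranged from 3 to 5. Same-numbered libraries were not treated as pairs. Of 45 same-numbered pairs 1 had a correlation over 0.1, which cannot show whether such libraries were handled together. With a replicate block 7 members were higher and 30 lower in KO against WT, 443 of 451 results stayed, 7 gained a call and PGM1 lost it in KO-WT against KO (adjusted p = 0.0556). Depth limited CA9 and SLC16A1, with 9 to 37 and 25 to 68 counts in the knockout-derived groups.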

Other observations

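Of 11 glucose-sensing and MYC-network genes tested, 8 were called higher and 1 lower in KO than in WT, where 35.9% of all genes tested were called higher and 36.8% lower. PPARGC1A, a coactivator of mitochondrial biogenesis, averaged 12 CPM in KO and 4.88 CPM in WT (log2 1.29), and the arrestin-like ARRDC4 15.3 CPM in KO and 6.63 CPM in WT (log2 1.21). TXNIP, which restrains glucose uptake, was lower than in KO in each of the 4 treated or reconstituted groups, at 214 CPM in KO+G, 212 CPM in KO-WT, 191 CPM in KO-NLS and 228 CPM in KO-NES, against 338 CPM in KO.

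Of 8 pentose phosphate genes tested, 5 were lower and 3 higher in KO than in WT, against the same shares of all genes. PGD, a dehydrogenase of the oxidative branch, averaged 92.6 CPM in KO and 243 CPM in WT (log2 -1.39). Of 12 glycogen genes 6 were lower and 4 higher in KO, with the lysosomal glucosidase GAA at 84.2 CPM in KO and 25.5 CPM in WT (log2 1.73).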
